A study of Mus musculus with 6 samples.

Results

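A set of 10 transcription factors that mark the germ layers and the trophoblast were followed through a knockdown of Exosc2 in mouse embryonic stem cells (ESCs), the pluripotent cells of the early embryo. They are T, Eomes, Mixl1, Gata3, Gata4, Gata6, Sox17, Foxa2, Cdx2 and Runx1, chosen by symbol, and all 10 were among the 17912 genes of the table. Poly(A) RNA had been sequenced in 3 shEXOSC2 libraries, each titled as a clone (5, 6 and 7) carrying a short hairpin RNA against Exosc2, genotype EXOSC2_KD, and in 3 control libraries (1, 2 and 3), genotype WT. The protein EXOSC2 belongs to the RNA exosome, which degrades RNA from its 3′ end. The labels leave unsaid whether the controls carried a hairpin and whether clones and controls came from 1 parental line. They also do not tie libraries to separate cultures, and p-values then measure the spread between these libraries alone, which may be technical.

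In the embryo, T, Eomes and Mixl1 are switched on in the primitive streak, where the epiblast gives rise to mesoderm and endoderm under Nodal, WNT and BMP signals. Gata4, Gata6, Sox17 and Foxa2 act in the extraembryonic and definitive endoderm. Cdx2, Gata3 and Eomes also act in the trophectoderm, the lineage of the placenta, and RUNX1 is needed for the first blood stem cells. ESC cultures are known to hold a few cells that leave pluripotency, so low levels of such factors are common in them.

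Depth ranged from 24268430 to 26494985 recovered reads in the clones and from 21107761 to 24633836 in the controls. Values are scaled counts, read counts divided by a size factor for each library, and these factors ranged from 0.973 to 1.08 in the clones and from 0.926 to 1.06 in the controls. Exosc2 itself measured 1138, 997 and 981 in the clones and 2457, 2473 and 1954 in the controls, 45.3% of the control mean (limma adjusted p = 5.1e-05). An exact two-sided permutation test of Exosc2 gave p = 0.1, and groups of 3 cannot give a smaller one. Of 14 ESC markers, 12 fell and 2 rose in the clones, and 7 of the 14 passed the level filter through the controls alone and so had to differ. Zfp42, Dppa3 and Utf1 had no read in the clones. The 2 that rose, named after their values were seen, were the pluripotency factor genes Pou5f1, at 91114 ± 2227 in the clones and 21045 ± 4721 in the controls (SD, n = 3 each), and Klf4, at 14169 ± 2032 and 2415 ± 82.02. The summed level of the 14 was 103773 to 113852 in the clones and 126754 to 139552 in the controls. Pou5f1 and Klf4 made up most of the clone sum, which therefore hides the fall of the other 12. The median log2 fold change of the 14 was -9.27. The defining markers of the ESC label were thus present only in part in the clones. Of 9 tested fibroblast and feeder markers 8 rose and 1 fell, where 35.2% of all tested genes rose. Of the 9, 2 passed the level filter through 1 group alone and so had to differ. Summed levels of the 10 such markers in the table were 49057 to 64001 in the clones and 8882 to 10201 in the controls. None of them was at 0 reads in either group. The part of such cells in the results below was not tested. In bulk RNA, fewer cells of a type and less RNA per cell cannot be told apart.

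The upstream sequences of T and Cdx2, which had no read in any clone, and of Runx1, the factor with the highest level in the clones, are shown because these genes mark the ends of the range. They run 5′ to 3′ on the gene's strand and end at the annotated start, except that bases inside the gene's own GENCODE M21 exons are left out (21 for Cdx2 and 75 for the distal Runx1 start). RefSeq promoters (GRCm38.p6) were found for 6 of the 10 genes, with 9 starts in all. For the proximal Runx1 start and the Eomes start, the first transcribed bases were in no GENCODE M21 transcript of the gene. Capitals mark CpG dinucleotides, the sites of DNA methylation.
T, chr17:8434173-8434422, plus strand: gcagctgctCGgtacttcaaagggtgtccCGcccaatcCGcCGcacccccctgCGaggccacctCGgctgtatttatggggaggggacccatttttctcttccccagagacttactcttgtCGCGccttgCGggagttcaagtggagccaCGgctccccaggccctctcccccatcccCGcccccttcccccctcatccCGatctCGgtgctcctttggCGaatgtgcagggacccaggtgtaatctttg
Cdx2, chr5:147307271-147307499, minus strand: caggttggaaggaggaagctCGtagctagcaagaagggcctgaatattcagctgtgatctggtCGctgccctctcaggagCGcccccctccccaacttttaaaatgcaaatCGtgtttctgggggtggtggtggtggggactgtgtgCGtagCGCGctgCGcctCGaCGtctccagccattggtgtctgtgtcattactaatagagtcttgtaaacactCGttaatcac
Runx1 distal start, chr16:92826150-92826324, minus strand: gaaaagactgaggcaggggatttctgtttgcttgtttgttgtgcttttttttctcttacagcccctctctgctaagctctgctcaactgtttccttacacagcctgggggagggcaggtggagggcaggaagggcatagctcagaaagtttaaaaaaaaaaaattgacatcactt
Runx1 proximal start, chr16:92697330-92697579, minus strand: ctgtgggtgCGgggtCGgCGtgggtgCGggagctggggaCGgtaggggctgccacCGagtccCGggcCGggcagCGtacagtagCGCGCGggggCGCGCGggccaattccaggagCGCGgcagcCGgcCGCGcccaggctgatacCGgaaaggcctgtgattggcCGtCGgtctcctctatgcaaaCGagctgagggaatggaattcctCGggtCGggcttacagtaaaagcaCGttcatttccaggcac

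Over the full 250 bases before the start, the proximal Runx1 promoter held 27 CpGs and the distal one 2, against a median of 6 over 32851 promoters of the same length. T held 14, Cdx2 13, Gata3 19 and Eomes 8. The letters CTTTGA, recognised by the WNT effectors TCF and LEF, were found on either strand in 13.8% of all promoters, and among these genes only before T, in reverse complement 234 bases before its start. GC boxes (GGGCGG, either strand, in 32.7% of promoters) lay before T at 222 and 73 bases, before Gata3 at 188 and 176 bases, and before Foxa2. An E-box (CACGTG, in 6.02% of promoters) lay 71 bases before the distal Runx1 start, in the part not shown. AGATAA, bound by GATA factors (either strand, 9.99% of promoters), was found only before a Foxa2 start. No match was found before any of the 9 starts for TGANTCA, the AP-1 letters (either strand, 6.75% of promoters). The same held for the RUNX letters TGTGGT (either strand, 14.05%). It also held for AATCCACA of FOXH1 (either strand, 0.718%) and for the TATA box TATAAA (sense strand, 7.59%). The matches did not overlap each other. The table of gene counts does not separate transcripts from the distal and proximal Runx1 starts.

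Of the 10 factors, 6 had no read or 1 read in the 3 clones together, while Runx1 and Gata3 were higher there and Eomes remained at a lower level. Of the 10, 8 had a mean of at least 10 over the 6 libraries and were tested with limma on log2(scaled count + 1). At an adjusted p under 0.05, 2 rose (Runx1 and Gata3), where 35.2% of all 15179 tested genes rose, and 5 fell (T, Eomes, Mixl1, Gata4 and Cdx2), where 38.3% fell. Gata6 was not called. T, Mixl1, Gata4 and Cdx2 passed the level filter through the controls alone, so they had to differ, and their number says nothing beyond that. Clone and control values did not overlap for 7 of the 8, where this held for 77.3% of all genes tested.

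**Figure D1:**
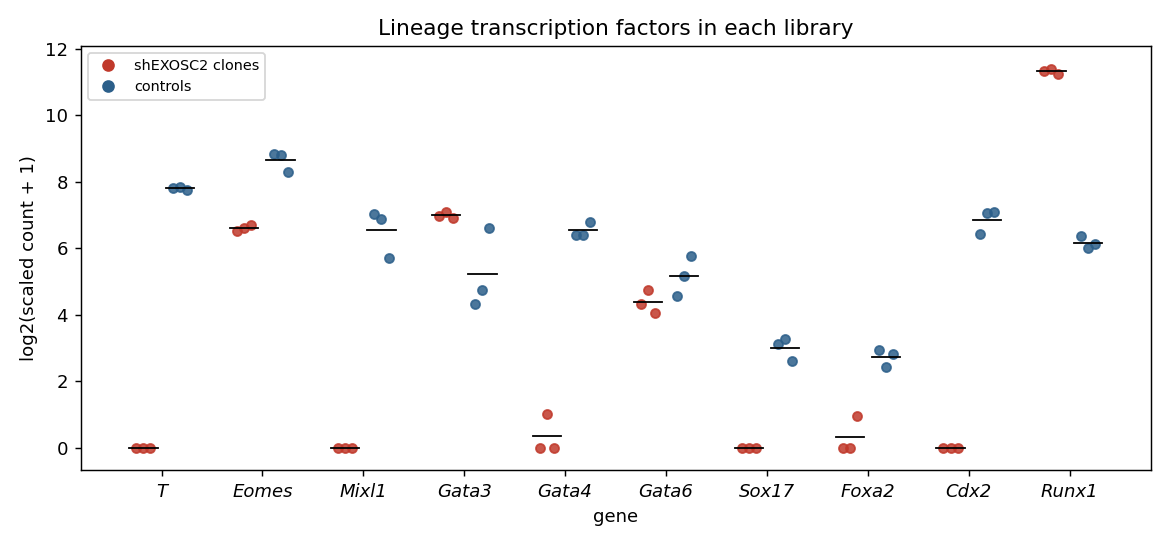
Level of each factor as log2(scaled count + 1), with 1 point per library, shEXOSC2 clones left and controls right in each pair, and bars at the mean of 3. T, Mixl1, Sox17 and Cdx2 sit at 0 in all 3 clones, Runx1 lies near 2551 scaled counts in the clones, and Gata6 overlaps between the groups.

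Among the primitive streak factors, T and Mixl1 were at 0 reads in every clone and Eomes was not. T, or Brachyury, a T-box factor of nascent mesoderm (ENSMUSG00000062327.10, chromosome 17, GRCm38 8434423 to 8442496), measured 0 in clones 5, 6 and 7, and 223, 226 and 213 in controls 1, 2 and 3. The controls were close to each other, at 221 ± 6.84 (SD, n = 3). Against a floor of 3 reads per library, a mean scaled count of 2.94 in the clones, T was at least 74.95-fold lower (limma adjusted p = 7.5e-08). Such floors and the counting intervals below cover counting error only, because PCR copies of a molecule were not told apart.

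Mixl1, a paired-like homeodomain factor of the streak that acts in endoderm formation (chromosome 1, 180693043 to 180697034), measured 0 in all 3 clones and 129, 116 and 51.2 in the controls. Control 3 was the lowest of the 3, and no clone had a read. It was at least 33.5-fold lower in the clones (limma adjusted p = 1.2e-06). The 930 tested genes of chromosome 1 had a median log2 fold change of -0.60, and with chromosome medians subtracted Mixl1 was still called.

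Eomes, the T-box factor of the streak and the trophoblast (chromosome 9, 118478212 to 118486132), measured 90.5, 95.6 and 101 in the clones and 456, 441 and 313 in the controls. All clones lay below all controls, and the clones kept 23.8% of the control mean. The means were 95.9 ± 5.48 and 403 ± 78.1 (SD, n = 3 each), with a log2 fold change of -2.04 ± 0.20 (SE, limma adjusted p = 1.8e-05). Per kilobase of merged exons, Eomes and T averaged 97.0 and 95.3 scaled counts in the controls, and their ranges overlapped, whereas in the clones Eomes averaged 23.1 and T had no read.

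Of the endoderm factors, Gata4 fell, Gata6 was not called, and Sox17 and Foxa2 were too low to be tested. Gata4, a zinc finger factor of primitive endoderm and heart (chromosome 14, 63198922 to 63271692), measured 0, 1.03 and 0 in the clones and 83.3, 83.2 and 109 in the controls. That is 1 read in all clones together, with a control to clone ratio of 269 and an exact 95% counting interval of 50.2 to 11172 (limma adjusted p = 1.1e-06). Gata4 lies on chromosome 14, whose 491 tested genes had a median log2 fold change of -0.57. The call held with chromosome medians subtracted.

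Gata6, which specifies primitive endoderm, measured 18.9, 25.7 and 15.7 in the clones and 22.7, 34.6 and 53.2 in the controls. It was the only factor whose groups overlapped, since clone 6 lay above control 1. The log2 fold change was -0.79 ± 0.36 (SE, limma adjusted p = 0.078), and the value without control 1 was -1.09 (limma adjusted p = 0.030), without control 3 -0.49 and with quantile scaling 0.30. No direction can be given for Gata6 from these libraries.

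Sox17 and Foxa2 did not reach the level tested. Sox17, an HMG-box factor of endoderm, measured 0 in all 3 clones and 7.58, 8.64 and 5.02 in the controls, at least 2.40-fold lower in the clones. Foxa2, a forkhead factor of the node and the definitive endoderm, measured 0, 0 and 0.923 in the clones and 6.63, 4.32 and 6.03 in the controls. That is 1 read against 17, a control to clone ratio of 18.4 with an exact 95% counting interval of 2.74 to 731. All clones lay below all controls for both genes. Without a filter on low values both were called lower (limma adjusted p = 1.1e-04 for Sox17 and 8.9e-04 for Foxa2).

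The trophoblast factors split. Cdx2, the caudal-type homeodomain factor of trophectoderm and later of hindgut (chromosome 5, 147300805 to 147307270), measured 0 in every clone and 84.3, 131 and 135 in the controls. It was at least 39.6-fold lower in the clones (limma adjusted p = 2.5e-07). Gata3, a GATA factor of trophectoderm and of T cells (chromosome 2, 9857078 to 9890034), measured 124, 134 and 118 in the clones and 18.9, 25.9 and 95.4 in the controls. The clones were close together and above every control, but control 3 stood at about the level of the clones.

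The Gata3 means were 125 ± 7.79 in the clones and 46.8 ± 42.3 in the controls (SD, n = 3 each). The log2 fold change was 1.76 ± 0.52 (SE, limma adjusted p = 0.014). Control 3 decided its size: without that library the log2 fold change was 2.45 (limma adjusted p = 8.3e-05), and without control 1 or control 2 it was 1.31 and 1.52 and the call was lost (limma adjusted p = 0.062 and 0.055).

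Trophoblast genes moved with Gata3 among the controls. Of 18 list genes with a control mean of at least 10, 14 were highest in control 3 (77.8%), against 40.3% of all 15189 genes at that level. The summed level of all 19 list genes in the table was 12412 to 15403 in the clones, and 16911, 18413 and 40369 in controls 1, 2 and 3. Without Peg10 it was 12347 to 15344 in the clones and 10974, 13536 and 20894 in the controls. The clones then lay within the range of the controls, but a large part of their sum was Krt8, a keratin gene. Krt8 measured 6019, 8121 and 8437 in the clones and 1039, 1878 and 3989 in the controls, and rose. Of the 16 tested genes of the list, 11 fell and 3 rose, so the sum does not stand for most of them. Peg10, an imprinted gene of placental growth, measured 64.7, 41.1 and 58.1 in the clones and 5937, 4877 and 19475 in the controls. Hand1, a basic helix-loop-helix factor of trophoblast giant cells and mesoderm chosen here after its values were seen, measured 0, 0 and 3.69 in the clones and 71.0, 100 and 476 in the controls. Of the primitive and visceral endoderm list, 10 of 13 genes at that level were highest in control 3 as well. Within the trophoblast list Gcm1 had no read in the clones, and no list gene was at 0 reads in the controls. The part of such cells in the Gata3 and Gata6 results was not tested.

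**Figure D2:**
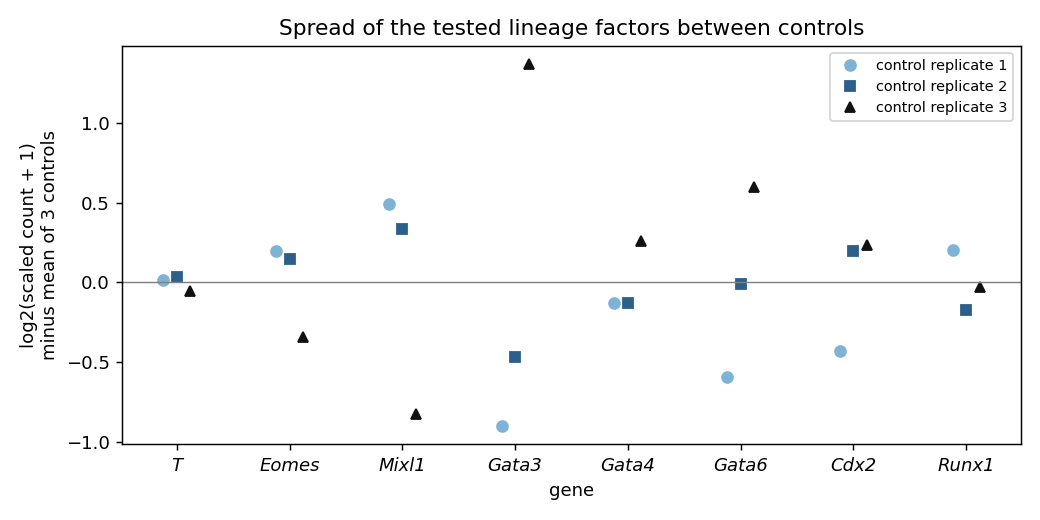
Deviation of each tested factor in control replicates 1, 2 and 3 from the mean of the 3, on the log2(scaled count + 1) scale. Control 3 is the highest for Gata3, Gata4, Gata6 and Cdx2 and the lowest for T, Eomes and Mixl1, while T varies least.

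Of the 8 tested factors, 3 were lowest in control 3 (T, Eomes and Mixl1) and 4 were highest there (Gata3, Gata4, Gata6 and Cdx2). These are shares of 37.5% and 50%, near the 34.6% and 40.3% of all genes at that level. The control coefficient of variation was 3.10% for T, 19.4% for Eomes, 42.1% for Mixl1 and 90.4% for Gata3.

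Runx1, the RUNT-domain factor of blood stem cell emergence (ENSMUSG00000022952.16, chromosome 16, 92601466 to 92826149), was the factor that moved most upward. It measured 2554, 2691 and 2410 in the clones and 81.4, 62.6 and 69.3 in the controls. The lowest clone lay far above the highest control. The means were 2551 ± 141 and 71.1 ± 9.53 (SD, n = 3 each), 35.9-fold higher in the clones, with a log2 fold change of 5.15 ± 0.15 (SE, limma adjusted p = 4.4e-08). Over 17 alternatives the log2 fold change stayed between 5.004 and 5.44.

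Per kilobase of merged exons, Runx1 became the highest of the 10 in the clones, at 212 scaled counts, followed by Gata3 at 31.5, Eomes at 23.1 and Gata6 at 3.09, and the ranges of these 4 did not overlap. In the controls the order was Eomes, T, Cdx2 (51.5), Mixl1 (42.9), Gata4 (23.6), Gata3 (11.8), Runx1 (5.92), Gata6 (5.66), Foxa2 (2.39) and Sox17 (1.48). There the ranges of T and Cdx2, of Gata6 and Foxa2, and of Foxa2 and Sox17 did not overlap, and all other neighbours in the order did. The genes with levels most like those of Runx1, by Euclidean distance over log2(scaled count + 1) in the 6 libraries, were C1qtnf1 (distance 0.49), Misp (0.49) and Fxyd5 (0.52).

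Paralogs of the RUNX, T-box and GATA factors moved in both directions, while those of the SOXF, FOXA and CDX factors that were tested all fell. RUNX2, the bone and cartilage counterpart of RUNX1, is encoded on chromosome 17, and Runx2 measured 2619, 2026 and 2453 in the clones and 62.5, 22.7 and 49.2 in the controls. Every clone was far above every control, 52.8-fold by the means, with a log2 fold change of 5.80 ± 0.33 (SE, limma adjusted p = 8.3e-07). Runx3, the third paralog, fell to 14.2 ± 4.64 in the clones, against 60.4 ± 1.98 in the controls. Cbfb, the DNA-binding partner of all RUNX proteins, measured 2553 ± 78.9 and 2200 ± 339 (SD, n = 3 each) and was not called, but it was called higher with chromosome medians subtracted (log2 fold change 0.70) and without control 1 (0.34). The ETO-family corepressor genes Runx1t1 and Cbfa2t2 fell by 1.78 and 1.20 on the log2 scale. In this list of 6 RUNX factors and partners, 1 of 5 tested rose and 3 fell, with a median log2 fold change of -1.20, where the median of all tested genes was -0.07.

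T-box genes also split, 3 of 8 tested rising and 4 falling with a median of -0.31. Tbx20, a heart T-box factor, rose to 593 ± 180 in the clones, against 64.3 ± 15.3 in the controls. Tbx18, of epicardium, was 4.13-fold higher in the clones, at a mean of 111, and Tbx15, of skeletal mesenchyme, was 3.65-fold higher, at a mean of 207. Both rose. Tbx3, a factor of naive pluripotency as well as of limb, fell to 106 ± 20.04, against 1195 ± 137 in the controls. Tbx21, the T-helper factor T-bet, had no read in the clones and 97 in the controls, and was at least 11.1-fold lower. Mga fell by 1.02 on the log2 scale. Tbx6, of paraxial mesoderm, fell by 1.42, a direction that flipped to 0.44 with quantile scaling. That call was lost with DESeq2, without clone 6 and without control 1. Tbx4 was not called, but passed with quantile scaling (1.34).

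Among GATA factors and their FOG cofactors, 2 of 5 tested rose and 1 fell, with a median of 0.04. Gata2, which acts beside Gata3 in trophoblast and in blood stem cells, measured 1013, 1327 and 1197 in the clones, against 88.1, 119 and 262 in the controls, again with control 3 highest. Its log2 fold change was 3.06 ± 0.35 (SE, limma adjusted p = 5.6e-05). Gata1, the erythroid factor, had 3 reads in the clones and 80 in the controls, and fell. Without control 3 it no longer reached the level tested. Zfpm2, which encodes the cofactor FOG2, rose by 1.10 on the log2 scale, a call lost in 6 of the 17 alternatives.

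No paralog of the SOXF, FOXA and CDX factors rose, and all 4 tested fell, with a median of -2.55. Cdx1 measured 0 in all clones and 87.1, 177 and 109 in the controls, at least 42.3-fold lower. Sox7 fell to 3.18 ± 2.26 in the clones, against 31.4 ± 4.07 in the controls. Sox18 and Foxa3 fell to 4.89 and 21.9 in the clones, against 22.9 and 73.9 in the controls, but with quantile scaling they measured -0.27 and -0.80 and were not called. Of these 4 genes 3 passed the level filter through the controls alone.

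**Figure D3:**
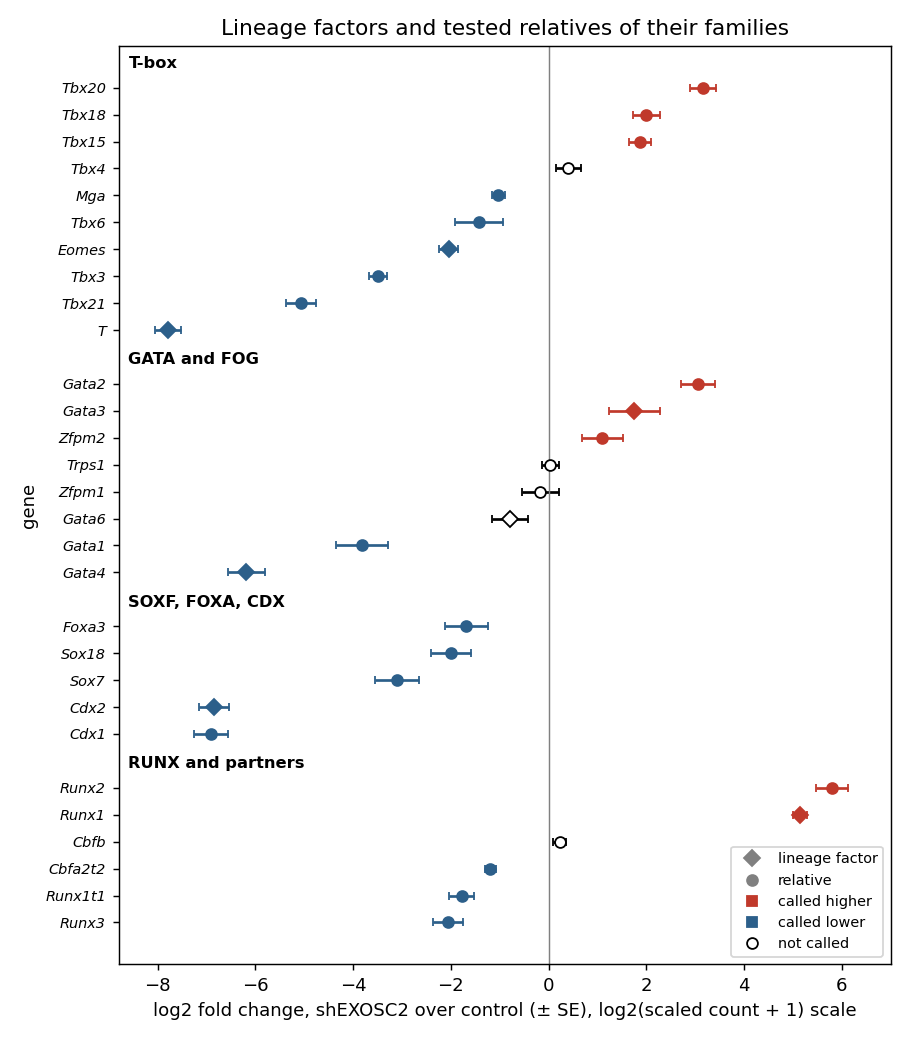
Log2 fold change of shEXOSC2 over control with its SE for the lineage factors (diamonds) and tested relatives (circles), on the log2(scaled count + 1) scale. Runx1 and Runx2 lie together at the upper end, the CDX pair and T at the lower end. Values of genes with no read in the clones depend on the pseudocount, and with quantile scaling Gata6 and Tbx6 lie above 0.

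The signals that induce these factors were mostly lower in the clones. Among 18 tested signals, 12 were called lower and 3 higher, where 38.3% of all tested genes fell and 35.2% rose. The median log2 fold change was -2.43. The 3 that rose are not described here. Of the 18, 5 passed the level filter through 1 group alone. Nodal, the TGF-beta ligand that patterns the streak, had 4 reads in the clones and 3014 in the controls. Tdgf1, its co-receptor, measured 0.995, 2.05 and 2.77 in the clones, against 25724, 22782 and 26371 in the controls. Wnt3, the ligand that starts streak formation, had no read in the clones and 257 in the controls, and was at least 29.5-fold lower. Wnt3 and Nodal were thus at or near 0 reads in the clones, as T and Mixl1 were. Any link between these signals and the factors was not tested.

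Other genes of the same lineages showed no single direction. Of 15 tested regulators of primitive streak and mesoderm, 6 rose and 7 fell, with a median of 0.07, and 7 passed the level filter through 1 group alone. Twist1, a mesenchymal helix-loop-helix factor, rose to 1029 ± 201 in the clones, against 68.2 ± 5.55 in the controls. Tcf15, of somites and of epiblast priming, had 1 read in the clones and 889 in the controls, a control to clone ratio of 981 with an exact 95% counting interval of 164 to 36156. Of the list, Mesp1, Gsc, Lhx1, Msgn1 and Sp5 had no read in any clone.

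Of 5 tested definitive endoderm regulators, 2 rose and 3 fell, with a median of -1.68. Hhex, a homeodomain factor of liver and blood vessels, rose to 1220 ± 91.2 in the clones, against 128 ± 9.33 in the controls. The chemokine receptor gene Cxcr4 and the homeodomain gene Prox1 fell by 1.91 and 3.98. For primitive and visceral endoderm, 5 of 12 tested genes rose, 3 fell and the median was 0.89. The endocytic adaptor gene Dab2 and the laminin gene Lamb1 rose with log2 fold changes of 2.72 and 1.66, while Lama1, the laminin alpha chain of early basement membrane, fell to 1.95 ± 0.983, against 518 ± 128 in the controls.

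Of 16 tested trophoblast genes, 11 fell and 3 rose, and the median was -2.20. Of all tested genes, 38.3% fell and 35.2% rose. Tfap2a and Tead4, transcription factors of surface ectoderm and trophectoderm, rose with log2 fold changes of 5.37 and 2.20, in contrast to Cdx2. Other transcription factors of the list, named after their values were seen, fell as Cdx2 did. Among these, Tfap2c, Ascl2, Ovol2 and Msx2 fell by 1.94, 2.46, 3.39 and 2.68 on the log2 scale. Of 11 tested genes of blood and endothelium, 6 fell and 1 rose, and the median was -0.99. Tal1, which acts with RUNX1 in blood formation, had no read in the clones and 60 in the controls, at least 6.91-fold lower. Pecam1, an endothelial adhesion molecule, and Kit, the stem cell factor receptor, fell by 7.29 and 4.14. The 1 gene that rose was Tek, an endothelial receptor tyrosine kinase, 5.50-fold higher at 390 ± 42.9 in the clones and 71.0 ± 21.1 in the controls (SD, n = 3 each), and Lmo2, Cdh5, Itga2b and Ikzf1 were not called. More blood and vessel genes of this list thus fell than rose beside the rise of Runx1, where 38.3% of all tested genes fell and 35.2% rose. Of the 11, 2 passed the level filter through the controls alone, Tal1 among them, and so had to differ. Outside the list, Gata2 and Flt3 rose and Gata1 fell. In the same comparison 73.5% of all tested genes were called in either direction, so a high share of called genes is common to the whole table.

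**Figure D4:**
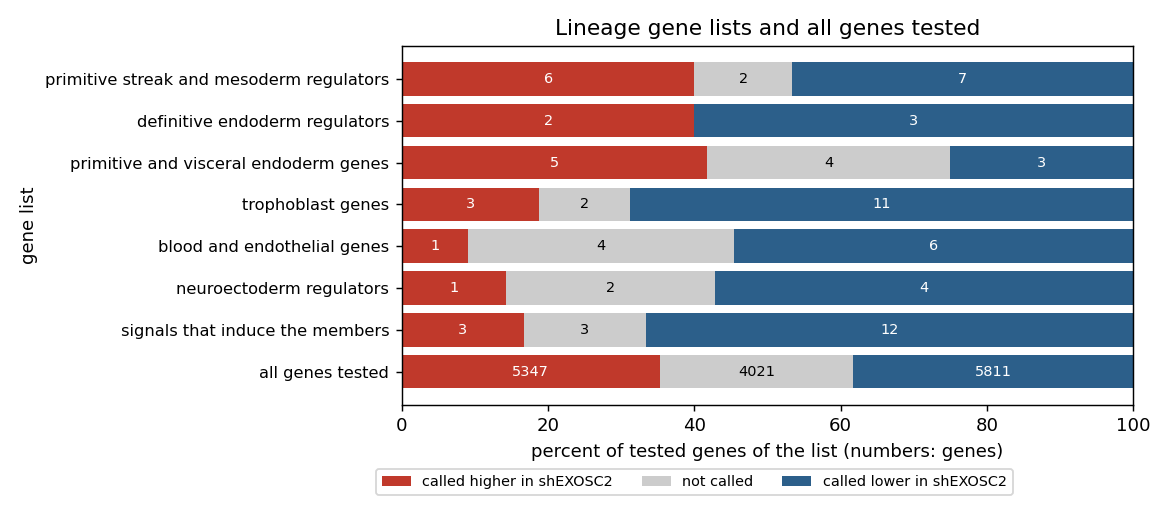
Share of tested genes called higher (left), not called (middle) and called lower (right) in shEXOSC2 clones for 7 lists of these lineages and their signals and for all 15179 tested genes, with the number of genes printed in each bar. Trophoblast genes and inducing signals fell in 11 of 16 and 12 of 18 cases, where 38.3% of all tested genes fell, while mesoderm regulators moved both ways.

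The nearest tested genes of the 7 called factors did not share their direction in most cases, but many were far away. One on either side was taken for each of the 10 factors, 19 neighbours in all. Of these 7 rose, 9 fell and 3 were not called, where 35.2% of all tested genes rose and 38.3% fell. Only 6 of the 19 lay within 30 kb, and the gap reached 2348 kb (Celf2 beside Gata3). The nearest, Lin9 (2.35 kb from Mixl1) and Neil2 (5.07 kb from Gata4), fell as their factors did. Within 30 kb, Golga4, Flt3 and Taf3 moved opposite to their factors and Acbd3 was not called. For the 7 called factors, 3 of 14 neighbours were called in the factor's direction, 9 in the opposite direction and 2 were not called. Several neighbours, Gsx1, Flt3, Clic6 and Neil2 among them, passed the level filter through 1 group alone and so had to differ. The counts by direction include them. Cdx2 lies between Gsx1 and Flt3, which rose. Gsx1, a homeobox gene of the nervous system 110 kb away, measured 21.9, 22.6 and 28.6 in the clones and 0 in all 3 controls. Flt3, a receptor tyrosine kinase of blood progenitors 23.5 kb away, measured 49.7, 65.8 and 36.9 in the clones, against 2.84, 3.24 and 6.03 in the controls. Cdx2 thus had reads only in the controls, and Gsx1 only in the clones.

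Runx1 showed the reverse arrangement. Clic6, a chloride channel gene 60.2 kb away, measured 0.995, 0 and 0.923 in the clones, against 47.4, 41.0 and 79.3 in the controls. Beside Gata4, in contrast, Neil2 fell as Gata4 did. Neil2, which encodes a DNA repair glycosylase 5.07 kb away, measured 0.995, 0 and 1.85 in the clones, against 867, 866 and 1021 in the controls. It had a higher count than Gata4 in every control and was nearly as empty in the clones. Golga4 beside Eomes rose with a log2 fold change of 1.49, Taf3 beside Gata3 fell by 0.41 (a call lost without clone 6, at -0.38), Lin9 beside Mixl1 fell by 0.98, and Acbd3 on the other side of Mixl1 was not called (-0.20).

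**Figure D5:**
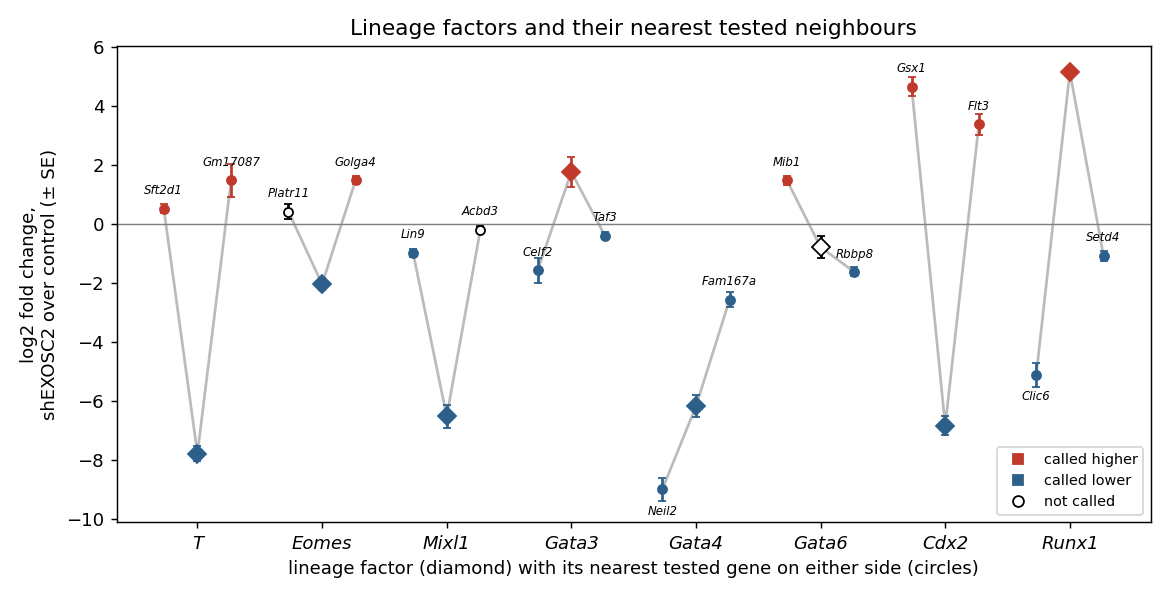
Log2 fold change of shEXOSC2 over control with its SE for each tested factor (diamond) and its nearest tested neighbour on either side (circles), joined by lines. Cdx2 lies below both neighbours and Runx1 above both, while Gata4 and its 2 neighbours are all lower. Distance along the axis is not to scale, values of genes with no read in 1 group depend on the pseudocount, and Acbd3 lies above 0 with chromosome medians subtracted.

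GENCODE M21 places 7 other genes over 5 of the factors (Eomes, Gata3, Gata6, Sox17 and Runx1), and none of the 7 was in the table. The libraries came from a stranded kit, but no source used here says whether counting used the strand, so reads of antisense transcripts cannot be told apart from those of these 5 genes. Over Gata3, 9230102O04Rik lies on the same strand, where the strand would not separate its reads.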

How the data were processed

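RNA from 6 libraries labelled as mouse ESCs was measured. Per the labels' protocols, libraries were made from 500 ng of RNA with a stranded TruSeq kit, poly(A) selection and 8 cycles of PCR. The build was mm10, and the tools named are DESeq 1.22.1, HTSeq 0.5.3, STAR 2.5.0a and cutadapt 1.6, per the submitters' processing notes, which give no settings. The authors deposited a signal, namely read counts of each gene divided by DESeq size factors, per the file headers and those notes. In every library 100.0% of values were whole multiples of 1 step within 0.001, which gave whole reads. GENCODE M21 (GRCm38, the assembly of mm10) matched 17860 of 17912 genes by identifier without version.

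Groups came from the sample titles, and replicate numbers differ between groups, so nothing was paired. The main test was limma 3.58.1 (lmFit, eBayes with trend) on log2(scaled count + 1), where the mean over libraries was 10 or more, with Benjamini-Hochberg adjustment over all genes tested and a threshold of 0.05. Fold changes on this scale understate changes of low genes. The 17 alternatives were leaving out each library, DESeq2 1.42.0 or edgeR 4.0.16 on the recovered reads, quantile or TMM scaling, a pseudocount of 0.5 or 5, chromosome centring (subtracting each chromosome's median deviation in each library), a filter at 50 or none, and robust or trend-free eBayes. The test was checked on simulated counts.

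The 10 factors and 13 gene lists were chosen with earlier results of these data known, and some genes stand in more than 1 list. Lists were described by counts and medians, with no set test. Named genes are the 10 factors, Exosc2, the 3 smallest p of each list, family paralogs, nearest neighbours, and the 3 genes nearest in level to the factor with the highest mean (some of these are left undescribed, and 1 is not reported here). Neighbours within 30 kb, and others whose direction opposed that of their factor, were chosen for description after values were seen. Some list genes beyond the 3 smallest p were named in the same way. Software was Python 3.11.15 with scipy 1.17.1, pandas 2.3.3, numpy 2.4.6 and matplotlib 3.10.9, and R 4.3.3.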

Additional observations from a re-analysis of the deposited data

How the results depend on the processing

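Over 17 alternatives, T, Eomes, Mixl1, Gata4, Cdx2 and Runx1 kept their direction and their call wherever they were tested. The number of factors called higher, 2, was 1 to 2 when single libraries were left out, and the number called lower, 5, was 5 to 6. With a mean of at least 50, 3 were called lower, because Mixl1 and Gata4 were then below the level tested. Gata6 changed sign with quantile scaling (0.30), as did Tbx6 (0.44), and Acbd3 with chromosome centring (0.38). The cause was not tested. Of 72 named genes followed through the alternatives, 62 kept direction and call in every alternative that held them. List counts that moved by more than 1.5 times did so mainly with the filter. Without one, 13 mesoderm regulators were called lower in place of 7, and 6 each of the definitive and of the primitive and visceral endoderm genes in place of 3. With a mean of at least 50, 3 mesoderm, 1 definitive endoderm, 3 blood, 1 neuroectoderm, 2 T-box, 0 GATA and 1 of the SOXF, FOXA and CDX genes were called lower, since fewer were tested. With quantile scaling 2 of the SOXF, FOXA and CDX genes were. The single rise in the blood, neuroectoderm and RUNX lists became 2, and the 2 rises in the GATA list became 1, in some alternatives. Over 1197 gene values under alternatives, 14 lost the call, 6 gained it and 3 changed sign. No paired analysis was possible because controls are numbered 1 to 3 and clones 5 to 7. Depth limits Sox17 and Foxa2, with at most 8 reads in any library, and the bounds for genes without a read in the clones.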

Other observations

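Neuroectoderm regulators, the germ layer not among the 10 factors, rose in 1 and fell in 4 of 7 tested cases, with a median log2 fold change of -4.66, and 4 of the 7 passed the level filter through 1 group alone. Olig2, a helix-loop-helix factor of motor neuron and oligodendrocyte progenitors, had no read in the clones and 1100 in the controls, and was at least 126-fold lower. Neurod1, a neuronal differentiation factor, and Sox1, an early neural plate factor, also had no read in the clones, and were at least 16.4-fold and 8.74-fold lower. Pax6 and Hes5 were at 0 reads in the clones as well. The 1 that rose was Nes, named after its values were seen, at 5084 ± 254 in the clones and 962 ± 309 in the controls (SD, n = 3 each). Summed levels of the 11 list genes in the table were 4864 to 5334 in the clones and 1355 to 1722 in the controls. Nes made up most of the clone sum. Of all tested genes, 35.2% rose and 38.3% fell. Leaving out control 2 left 2 of the list called lower, because Sox1 and Pax6 were then below the level tested.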
